A study of Homo sapiens with 6 samples.

Results

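The genes described here are 38 genes of cholesterol and fatty acid synthesis, chosen by name as the probes that the platform's annotation assigns to them. They are 19 genes of the sterol branch, 15 of the fatty acid branch and 4 regulators shared by both, out of 20045 genes with a probe of a single symbol. Of the 38, 36 had a probe and 35 could be measured. FDFT1 and ACSL3 are not analysed here, and the desaturase FADS2 was above background on 1 of the 6 arrays only. H460 is an established line derived from a human large cell carcinoma of the lung. Cells that crossed a membrane coated with basement membrane extract (H-INV) were compared with cells that stayed above it (L-INV), after repeated rounds of selection in Boyden chambers. The labels and the methods give different numbers and lengths of these rounds. Both subpopulations were kept in glucose-free RPMI-1640 medium with serum and were expanded after selection. RNA from 3 sets of cells per subpopulation was hybridized to 1 array each, all 6 on the same BeadChip. The sets are called different, without a statement that each was selected on its own, so that the p-values rest on a spread between sets that may be technical. L-INV arrays occupied positions A to C and H-INV arrays positions D to F, so that position and subpopulation cannot be told apart.

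Cells build cholesterol from acetyl-CoA through mevalonate, isoprenoids, squalene and lanosterol, and they build fatty acids from the same acetyl-CoA through malonyl-CoA and palmitate. Both branches are controlled by the sterol regulatory element-binding proteins (SREBPs), membrane-bound transcription factors that travel from the endoplasmic reticulum to the Golgi apparatus when sterols are scarce and are cut there to release an active fragment. INSIG proteins hold the SREBPs back when sterols are plentiful. SREBF2 is known mainly for the genes of sterol synthesis and SREBF1 for those of fatty acid synthesis, and tumour cells often make their own lipids even where serum supplies them.

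The 6 arrays were alike in quality, with 16368 to 16985 probes above background and correlations of 0.995 to 0.996 within a subpopulation across the genes tested, against 0.920 to 0.927 between subpopulations (genes are not independent replicates). Of 5 epithelial markers, 5 were above background in L-INV cells and 4 in H-INV cells, where EPCAM was not. KRT19 fell by 4.12 on the log2 scale and KRT7 rose by 1.09. The summed scanner intensity of the epithelial probes ran from 8335 to 9759 on the L-INV arrays and from 2743 to 2897 on the H-INV arrays. Of 5 endothelial markers 0 were above background, with sums of 682 to 701 and 669 to 686. Of the 4 leukocyte markers with a probe, CD14 and CD68 were above background and PTPRC and CD3E were on no array, with sums of 2131 to 2501 in L-INV cells and 1566 to 1658 in H-INV cells. Of 5 fibroblast markers, COL1A1, COL3A1 and PDGFRB were above background on at least 1 array and COL1A2 and DCN on none, with sums of 1626 to 1831 and 2151 to 2613. The part of these shifts in the results below was not tested. Each array averages over its cells, so that fewer cells expressing a gene and less RNA per cell cannot be told apart.

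Sterol genes were more often lower and fatty acid genes more often higher in H-INV cells than in L-INV cells. Of the 18 measured sterol genes, 7 (38.9%) fell and 3 (16.7%) rose, with 8 left uncalled by limma (Benjamini-Hochberg adjusted p under 0.05 over 10279 genes). Genes were kept if detected on at least 3 arrays (the detection filter). STARD4, among the falls, passed it only through L-INV cells, where it is high, and TM7SF2 met it there alone. With detection asked on all 6 arrays, which left both out, 6 of 16 (37.5%) fell and 4 (25%) rose. Of all genes in that setting, 25.2% fell and 33.4% rose. Of the 13 measured fatty acid genes, 7 (53.8%) rose, 2 (15.4%) fell and 4 were left uncalled. Among all genes tested 58.0% were called, 32.6% as higher and 25.4% as lower. Taken as one group the 35 genes were near that background, with 11 (31.4%) higher and 9 (25.7%) lower. The median log2 fold change was -0.20 in the sterol branch and 0.23 in the fatty acid branch, beside 0.05 over all genes tested. With a fold change above 2 as a further condition, 2 sterol genes fell and 3 fatty acid genes rose, or 5 of 35, where 10.2% of all genes passed (4.22% higher and 6.02% lower). The 3 arrays of one subpopulation lay wholly above those of the other for 13 genes higher and 10 lower in H-INV cells, beside 64.5% of all genes (36.3% higher and 28.2% lower). The count of the fatty acid branch depended on single arrays, test and threshold. Without H-INV replicate 2, 4 of 13 (30.8%) rose and 1 (7.69%) fell, beside 28.9% and 22.9% of all genes in the same setting. Its share of rises was then near the background. The rises were 5 of 13 (38.5%) without L-INV replicate 2, without H-INV replicate 3 or with the methods' one-way ANOVA, beside 29.3%, 29.9% and 28.3% of all genes. At an adjusted p under 0.01 they were 4 of 13 (30.8%), beside 24.8%. Without background correction they were 8 of 13 (61.5%), beside 34.3%. The sterol counts were the same without H-INV replicate 2 but moved in other settings. Without background correction, with an offset of 50 or with a robust trended prior, 5 of 18 (27.8%) rose and 9 (50%) fell. Of all genes, 34.3%, 33.9% and 34.2% rose there and 26.7%, 26.4% and 26.6% fell. At an adjusted p under 0.01, 1 sterol gene (5.56%) rose and 7 (38.9%) fell, beside 24.8% and 19.9% of all genes. No test was made of either branch as a set or of the difference between them.

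**Figure D1:**
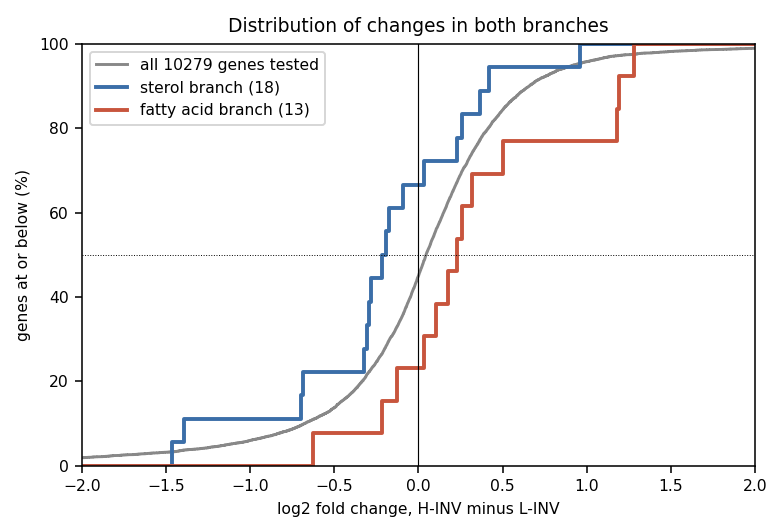
Cumulative share of genes (y axis, percent) at or below a given log2 fold change (x axis, H-INV minus L-INV) for all 10279 genes tested, the 18 measured sterol genes and the 13 measured fatty acid genes. The sterol line lies to the left of the line for all genes over most of its length and the fatty acid line to the right, with medians of -0.20 and 0.23.

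**Figure D2:**
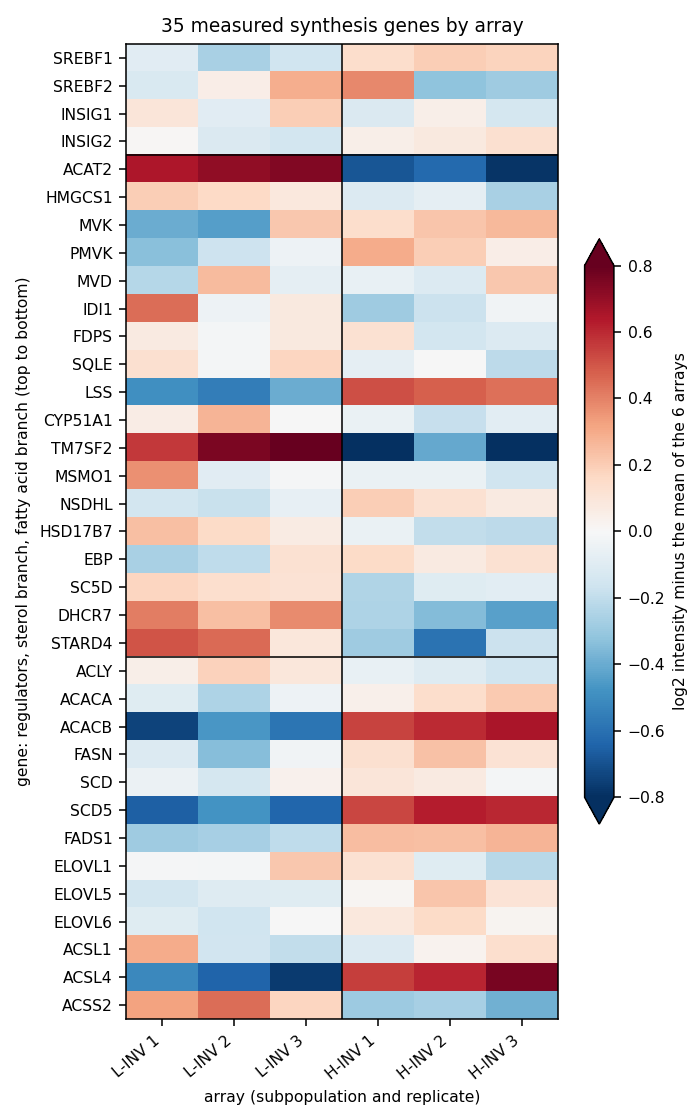
Log2 intensity of the 35 measured genes on each of the 6 arrays, drawn as the difference from the gene's mean over the arrays (colour, log2 units). Rows are regulators, sterol genes and fatty acid genes from top to bottom, columns are L-INV replicates 1 to 3 and H-INV replicates 1 to 3. ACAT2 and TM7SF2 are high on all 3 L-INV arrays, while LSS, ACACB, SCD5 and ACSL4 are high on all 3 H-INV arrays.

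The sequence before the start site is shown for the 5 genes with the largest changes past the test that have one in the RefSeq promoter table (GRCh38.p14), and for SREBF2, added after its motif was seen. Each run holds the 250 bases upstream of the start, read along the gene. Capitals mark matches to 3 motifs searched on both strands: the sterol regulatory element TCACNCCAC, the CCAAT box bound by NF-Y, and the E-box CACGTG, which is its own reverse complement. None of the letters of one motif contains another. The regions are chr11:65111622-65111871 (plus strand) for TM7SF2, chr21:46228775-46229024 (minus strand) for LSS, chr12:109116337-109116586 (plus strand) for ACACB (not the outermost start of this gene), chr4:82798797-82799046 (minus strand) for SCD5, chrX:109733258-109733507 (minus strand) for ACSL4 and chr22:41832855-41833104 (plus strand) for SREBF2.
TM7SF2: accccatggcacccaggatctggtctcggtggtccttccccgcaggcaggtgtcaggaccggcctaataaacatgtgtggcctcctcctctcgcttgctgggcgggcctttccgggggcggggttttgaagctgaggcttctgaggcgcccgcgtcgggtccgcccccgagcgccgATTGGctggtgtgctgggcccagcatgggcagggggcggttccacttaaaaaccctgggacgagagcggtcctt
LSS: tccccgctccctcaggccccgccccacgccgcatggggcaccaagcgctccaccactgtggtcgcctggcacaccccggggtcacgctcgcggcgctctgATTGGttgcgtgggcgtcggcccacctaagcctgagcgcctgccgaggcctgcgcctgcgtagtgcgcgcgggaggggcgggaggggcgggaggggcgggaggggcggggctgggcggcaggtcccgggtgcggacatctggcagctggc
ACACB: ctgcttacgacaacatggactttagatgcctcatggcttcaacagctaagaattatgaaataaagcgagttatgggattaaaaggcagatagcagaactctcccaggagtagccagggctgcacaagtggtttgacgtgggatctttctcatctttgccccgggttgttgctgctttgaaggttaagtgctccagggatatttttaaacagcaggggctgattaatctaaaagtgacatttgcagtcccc
SCD5: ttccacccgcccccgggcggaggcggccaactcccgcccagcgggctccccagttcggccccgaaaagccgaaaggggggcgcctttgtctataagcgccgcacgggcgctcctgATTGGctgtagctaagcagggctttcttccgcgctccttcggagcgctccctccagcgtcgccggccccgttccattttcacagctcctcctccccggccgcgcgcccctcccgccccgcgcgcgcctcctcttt
ACSL4: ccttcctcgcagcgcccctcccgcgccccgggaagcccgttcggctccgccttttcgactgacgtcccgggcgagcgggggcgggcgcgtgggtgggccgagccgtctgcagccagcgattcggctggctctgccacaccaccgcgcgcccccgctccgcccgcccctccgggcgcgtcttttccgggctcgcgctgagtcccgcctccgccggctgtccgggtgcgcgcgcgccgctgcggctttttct
SREBF2: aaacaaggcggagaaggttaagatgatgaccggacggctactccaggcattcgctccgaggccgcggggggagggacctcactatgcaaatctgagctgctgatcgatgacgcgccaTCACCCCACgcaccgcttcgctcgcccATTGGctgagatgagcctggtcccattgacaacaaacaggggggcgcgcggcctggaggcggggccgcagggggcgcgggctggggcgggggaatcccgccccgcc
The SREBF2 run carries the only match to the sterol regulatory element among the 34 promoters of these genes in the table, with a CCAAT box in reverse orientation downstream of it. Over all 27305 promoters of the same length, 1 per gene, 0.868% held that element. A CCAAT box stood in 12 of 16 sterol promoters and in 7 of 14 fatty acid promoters, against 33.0% of all promoters and 36.2% of the 8400 promoters of genes tested. It was present in 21 of the 34 promoters, in 7 of 8 of genes that fell, 4 of 10 of genes that rose and 9 of 14 of genes left uncalled. The split by call leaves out FADS2 and ACSL3, which were not measured. Most genes that fell were sterol genes and most that rose were fatty acid genes. Call and branch are thus mixed in these shares, and no test was made. An E-box stood in 3 of the 34, those of INSIG1, SC5D and ELOVL5, against 6.46% of all promoters and 9.19% of those of genes tested. These are matches of letters in a short window and say nothing about binding.

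Of the regulators, only SREBF1 passed the test. Its log2 intensity was 9.40, 9.23 and 9.33 in L-INV cells and 9.63, 9.69 and 9.67 in H-INV cells. All 3 H-INV arrays lay above all 3 L-INV arrays, and the log2 fold change was 0.34 (SE, the standard error, 0.07, adjusted p = 0.00292). SREBF2 was dim, at 5.51, 5.69 and 5.92 in L-INV cells and 6.02, 5.31 and 5.35 in H-INV cells, and 1 H-INV array was above background. H-INV replicate 1 was its highest array, the groups overlapped, and the log2 fold change of -0.15 carried a 95% interval from -0.58 to 0.29 (adjusted p = 0.541). Without that array the value was -0.38 and passed (adjusted p = 0.0334), while without H-INV replicate 2 it was -0.021 (adjusted p = 0.940). INSIG1, itself a target of the SREBPs, was 10.17, 9.98 and 10.27 in L-INV cells and 9.96, 10.12 and 9.94 in H-INV cells by its brightest probe. These arrays overlapped and the log2 fold change was -0.14 (95% interval -0.35 to 0.08, adjusted p = 0.247). The other probe of INSIG1 fell, from 6.47, 6.30 and 6.75 to 5.64, 5.77 and 5.83, a log2 fold change of -0.76 (adjusted p = 0.000636 among all kept probes). The 2 probes thus gave different calls in the same direction, and with their mean INSIG1 was called lower (-0.45, adjusted p = 0.00459). INSIG2 was left uncalled at 0.17 (adjusted p = 0.0708), although its groups did not overlap, and it passed without L-INV replicate 1 (0.21, adjusted p = 0.0405), with 0.13 to 0.21 over the omissions of single arrays.

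Between acetyl-CoA and the isoprenoids, 2 of 7 measured genes fell, 1 rose and 4 did not pass. ACAT2, the cytosolic thiolase that joins acetyl-CoA units at the entry to the pathway, was 10.83, 10.89 and 10.92 in L-INV cells and 9.50, 9.56 and 9.39 in H-INV cells. Every H-INV array was below every L-INV array by more than the spread within either group. ACAT2 was 2.63-fold lower in H-INV cells (log2 fold change -1.39, SE 0.07, adjusted p = 7.73e-07). Of the 2 probes of ACAT2, only 1 passed the detection filter. HMGCS1, the HMG-CoA synthase of the next step, fell far less, from 9.07, 9.04 and 8.96 to 8.77, 8.81 and 8.61 (log2 fold change -0.29, SE 0.08, adjusted p = 0.00966). Its arrays did not overlap either. PMVK, phosphomevalonate kinase, moved the other way, from 8.03, 8.20 and 8.33 to 8.66, 8.57 and 8.42. Its log2 fold change was 0.36 (adjusted p = 0.0115), which the methods' one-way ANOVA did not call (adjusted p = 0.0573, and 0.000804 to 0.0573 over the alternatives).

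The remaining genes of this stretch did not pass. MVK, the mevalonate kinase, stood at a log2 fold change of 0.42 (adjusted p = 0.0531). Its L-INV arrays were spread widely, at 5.87, 5.83 and 6.49, and without L-INV replicate 3 it passed (0.63, adjusted p = 0.000335), while without L-INV replicate 2 it was 0.30 (adjusted p = 0.167). IDI1, which interconverts the isoprenoid building blocks, stood at -0.32 (adjusted p = 0.0607). It passed without L-INV replicate 2 (-0.43, adjusted p = 0.0270) and shrank without L-INV replicate 1 (-0.18, adjusted p = 0.165). MVK and IDI1 also passed with the authors' table (adjusted p = 0.0363 and 0.0362) and without background correction (0.0286 and 0.00629). With one-way ANOVA they did not (adjusted p = 0.184 and 0.181). MVD, the decarboxylase, had 0.03 (95% interval -0.28 to 0.34, adjusted p = 0.857), its sign turning without L-INV replicate 1 (-0.074) or H-INV replicate 3 (-0.068). FDPS, which makes farnesyl diphosphate, had -0.09 (95% interval -0.29 to 0.11, adjusted p = 0.403).

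At the squalene stage, LSS, the synthase that folds squalene epoxide into lanosterol, was the sterol gene with the largest rise. It measured 8.08, 8.01 and 8.17 in L-INV cells and 9.08, 9.04 and 9.00 in H-INV cells. The groups were separated by far more than their spread, and LSS was 1.94-fold higher in H-INV cells (log2 fold change 0.96, SE 0.07, adjusted p = 7.19e-06). Without background correction the value was 0.75. Of the 3 probes of LSS, only 1 passed the detection filter. SQLE, the squalene epoxidase that acts just before it, was left uncalled at -0.19 (adjusted p = 0.0778), and its arrays overlapped. SQLE passed without L-INV replicate 2 (-0.25, adjusted p = 0.0487) and ran from -0.25 to -0.13 over the omissions, and its dimmer probe fell (-0.33, adjusted p = 0.00697 among all kept probes).

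From lanosterol to cholesterol, 4 of 8 measured genes fell, 1 rose and 3 did not pass. In TM7SF2, a sterol reductase acting soon after lanosterol demethylation, the log2 intensity was 6.63, 6.81 and 6.94 in L-INV cells and 5.20, 5.65 and 5.14 in H-INV cells, where it was above background on 1 array only. No arrays overlapped, and the log2 fold change was -1.46 (SE 0.14, adjusted p = 3.97e-05). This size rests on H-INV values close to background, and it was -1.07 with the authors' table, -0.96 with an offset of 50 and -0.59 without background correction, each a smaller change than that of ACAT2 in the same setting (-1.36, -1.35 and -1.28). DHCR7, the reductase that completes cholesterol, fell from 9.73, 9.56 and 9.70 to 9.07, 8.97 and 8.89. Its log2 fold change was -0.69 (SE 0.08, adjusted p = 0.000115), and its other probe gave -0.68. The 2 probes agree within their standard errors.

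HSD17B7, a ketosterol reductase, and SC5D, a sterol desaturase that acts before DHCR7, fell by 0.31 and 0.28 on the log2 scale (adjusted p = 0.00919 and 0.00818). The value for SC5D was -0.18 without background correction. NSDHL, a dehydrogenase of the same demethylation steps as HSD17B7, rose by 0.26 (adjusted p = 0.0114). The demethylase CYP51A1 had -0.21 (adjusted p = 0.0644), which passed without L-INV replicate 3 (-0.27, adjusted p = 0.0377) and shrank without L-INV replicate 2 (-0.13, adjusted p = 0.204). The isomerase EBP had 0.23 (adjusted p = 0.0856), and without L-INV replicate 3 it passed (0.35, adjusted p = 0.00497), while without L-INV replicate 1 it was 0.16 (adjusted p = 0.253). MSMO1, a methylsterol oxidase, had -0.18 by its brightest probe (adjusted p = 0.228), and -0.039 without L-INV replicate 1 (adjusted p = 0.706). Of its other probes, 1 fell (-0.57, adjusted p = 0.000955 among all kept probes) and the other did not pass (-0.21, adjusted p = 0.238).

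STARD4, which carries sterols between membranes through the cytosol, was detected on every L-INV array but on none from H-INV cells. It measured 6.07, 6.02 and 5.66 in L-INV cells and 5.28, 4.97 and 5.39 in H-INV cells, without overlap. With the background correction used here the means put its level in H-INV cells at least 1.38-fold lower. This bound was not tested and leaves out the spread between arrays. For the bound the L-INV mean was set against, on each H-INV array, the dimmest probe still detected there or STARD4 itself where brighter. The fitted log2 fold change was -0.70 (adjusted p = 0.00258). Its interval from limma, -1.02 to -0.38, also holds changes smaller than the bound. The fitted change shrank to -0.41 with an offset of 50 and to -0.23 without background correction.

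**Figure D3:**
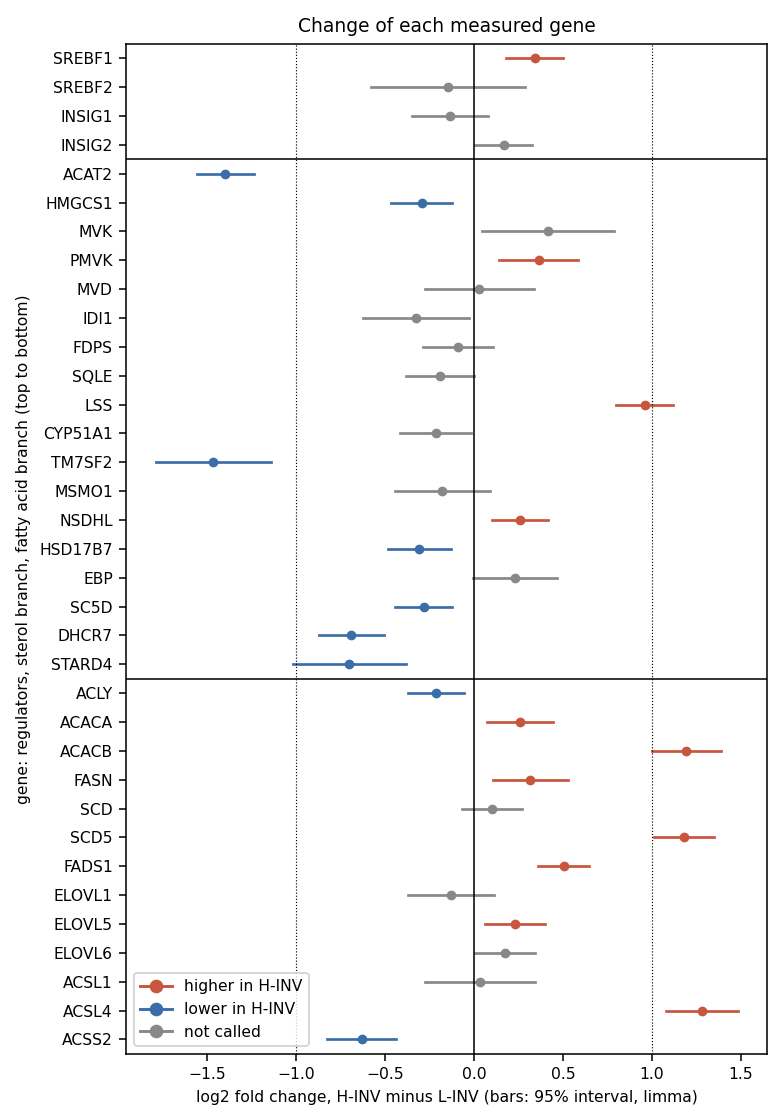
Log2 fold change (x axis, H-INV minus L-INV) of the 35 measured genes with 95% intervals from limma, for regulators, sterol genes and fatty acid genes from top to bottom. Colours give the call at an adjusted p under 0.05 and dotted lines mark a 2-fold change, which TM7SF2 and ACAT2 passed downward and ACACB, SCD5 and ACSL4 upward.

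Both suppliers of cytosolic acetyl-CoA were lower in H-INV cells. ACSS2, which makes acetyl-CoA from acetate, was 9.82, 9.95 and 9.68 in L-INV cells and 9.21, 9.24 and 9.12 in H-INV cells. All H-INV arrays were below all L-INV arrays, and ACSS2 was lower, with a log2 fold change of -0.63 (SE 0.08, adjusted p = 0.000285). Of its other probes, 1 fell (-0.49, adjusted p = 0.000927 among all kept probes) and 1 dim probe did not pass (-0.18, adjusted p = 0.265). ACLY, which splits citrate, showed a log2 fold change of -0.21 (adjusted p = 0.0262). This call was lost without L-INV replicate 2, H-INV replicate 2 or H-INV replicate 3 (adjusted p = 0.0909, 0.0678 and 0.0781), and over the alternatives its adjusted p ran from 0.00400 to 0.0909. Its other probe had -0.12 (adjusted p = 0.247).

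Both acetyl-CoA carboxylases, which make malonyl-CoA, and the fatty acid synthase rose, by very different amounts. ACACB, the acetyl-CoA carboxylase known for making malonyl-CoA at the mitochondrial surface, was 5.78, 6.05 and 5.93 in L-INV cells and 7.06, 7.12 and 7.17 in H-INV cells. The groups were well apart, with a log2 fold change of 1.19 (2.29-fold, SE 0.08, adjusted p = 6.03e-06). Without background correction the value was 0.57. Its cytosolic relative ACACA, which feeds fatty acid synthase, showed a log2 fold change of 0.26 (adjusted p = 0.0235). The 95% intervals, 1.00 to 1.39 for ACACB and 0.07 to 0.44 for ACACA, did not overlap. The call of ACACA was lost without L-INV replicate 2, H-INV replicate 2 or H-INV replicate 3 (adjusted p = 0.0823, 0.0654 and 0.0765) and with one-way ANOVA (0.0582), and its other kept probe had 0.13 (adjusted p = 0.150). FASN, the fatty acid synthase, was 12.38, 12.15 and 12.46 in L-INV cells and 12.61, 12.72 and 12.60 in H-INV cells. Its groups did not overlap, and its log2 fold change of 0.32 passed (adjusted p = 0.0168), though not without H-INV replicate 2 (0.28, adjusted p = 0.0611) or with one-way ANOVA (adjusted p = 0.0643, and 0.000371 to 0.0643 over the alternatives).

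Among the desaturases, which place double bonds in fatty acids, SCD5 and FADS1 rose. SCD5 was 6.87, 7.04 and 6.89 in L-INV cells and 8.06, 8.15 and 8.12 in H-INV cells. It was 2.26-fold higher in H-INV cells (log2 fold change 1.18, SE 0.07, adjusted p = 2.82e-06), and 0.76 on the log2 scale without background correction. Of the 3 probes of SCD5, only 1 passed the detection filter. Its relative SCD, the main stearoyl-CoA desaturase of most tissues, was 12.85, 12.76 and 12.94 in L-INV cells and 13.00, 12.97 and 12.89 in H-INV cells. These arrays overlapped, and the log2 fold change was 0.10 (95% interval -0.06 to 0.27, adjusted p = 0.260), below the interval of 1.01 to 1.35 for SCD5. FADS1, which desaturates polyunsaturated fatty acids, was 10.15, 10.17 and 10.23 in L-INV cells and 10.68, 10.68 and 10.71 in H-INV cells. Its spread was the smallest of the 35 genes in H-INV cells, and its log2 fold change was 0.50 (SE 0.06, adjusted p = 0.000173). FADS2, its neighbour on chromosome 11, measured 5.57, 5.39 and 5.40 in L-INV cells and 5.44, 5.28 and 4.85 in H-INV cells, and was above background on 1 L-INV array only, so that it was not tested.

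Of the 3 elongases among the 38 genes, 1 rose and 2 did not pass. ELOVL5, which lengthens polyunsaturated chains, showed a log2 fold change of 0.23 (adjusted p = 0.0264). The call was lost without L-INV replicate 1 (adjusted p = 0.0714), without L-INV replicate 2 (0.0566), without H-INV replicate 2 (0.101) and without H-INV replicate 3 (0.0568). ELOVL6, which lengthens palmitate, had 0.18 (adjusted p = 0.0670) and passed without L-INV replicate 3 (0.22, adjusted p = 0.0455), while without L-INV replicate 2 it was 0.14 (adjusted p = 0.192). ELOVL1, of very long chains, had -0.13 (95% interval -0.37 to 0.11, adjusted p = 0.331).

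Of the acyl-CoA synthetases, which activate long-chain fatty acids for use, ACSL4 rose and ACSL1 did not pass. ACSL4, which prefers arachidonic acid, was 10.33, 10.21 and 10.09 in L-INV cells and 11.41, 11.46 and 11.61 in H-INV cells. Every H-INV array was above every L-INV array by several times the spread, and ACSL4 was 2.43-fold higher (log2 fold change 1.28, SE 0.09, adjusted p = 4.97e-06). A dimmer probe of ACSL4 rose by 1.16 (adjusted p = 7.60e-05 among all kept probes). ACSL1 had a log2 fold change of 0.03 (95% interval -0.27 to 0.34, adjusted p = 0.846), with a sign that turned without L-INV replicate 2 (-0.033), L-INV replicate 3 (-0.056) or H-INV replicate 3 (-0.024).

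**Figure D4:**
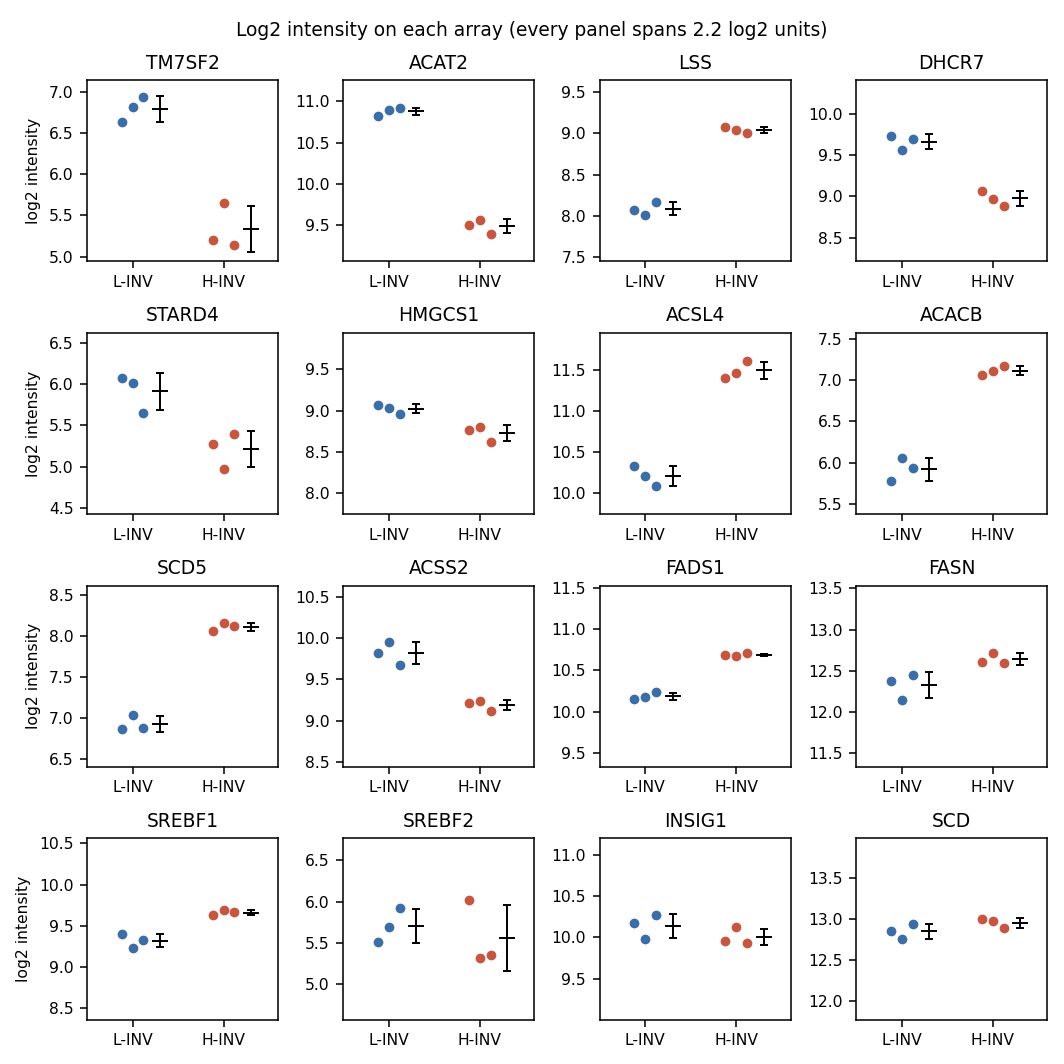
Log2 intensity on every array (points, 3 L-INV in blue and 3 H-INV in red) for 16 genes, with the mean and SD of each group as a black mark with bars. Each panel spans the same range on the y axis, so that distances can be compared between panels but levels cannot, since probes differ in brightness. TM7SF2, ACAT2, LSS, ACSL4, ACACB and SCD5 show separated groups, while SREBF2, INSIG1 and SCD overlap.

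Genes around both branches were counted by pathway, beside the same 32.6% of all genes rising and 25.4% falling. Of 16 measured genes of SREBP transport and turnover, 4 rose and 7 fell. UBE2G2, a ubiquitin-conjugating enzyme of the endoplasmic reticulum, rose by 0.82 on the log2 scale and LPIN1, a phosphatidate phosphatase, by 0.60. SEC24D, a coat protein of vesicles leaving the endoplasmic reticulum, fell by 0.77. MBTPS2, a protease that releases SREBPs, fell by 0.46 and its partner protease MBTPS1, named after its value was seen, by 0.43. Of 14 genes of isoprenoid use and coenzyme Q synthesis, 8 rose and 2 fell, with a median log2 fold change of 0.29. COQ2 and PDSS1 of coenzyme Q synthesis had log2 fold changes of 0.64 and 0.50 (PDSS1 was picked with its value known), and ZMPSTE24, a protease of prenylated proteins, had 0.55. GGPS1, which makes geranylgeranyl diphosphate, had -0.56, and RABGGTA, a subunit of a prenyltransferase, had -0.85 with 2 H-INV arrays above background.

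Of 17 measured genes of sterol uptake, transport and storage, 5 rose and 9 fell. Among those that rose, 1 was detected in H-INV cells only and passed the detection filter through that group. VLDLR, a lipoprotein receptor, showed a log2 fold change of -2.01 (SE 0.15, adjusted p = 7.90e-06), while PLTP, a secreted phospholipid transfer protein, rose by 1.97 (SE 0.06, adjusted p = 5.78e-08). With the background correction used here, these changes were larger than any within the 35 synthesis genes. VLDLR stood close to background in H-INV cells, at 5.74, 5.97 and 6.30, and the dependence of its size on background correction was not tested. OSBPL5, an oxysterol-binding protein relative, fell by 1.49, and SOAT1, which esterifies cholesterol for storage, rose by 0.82. Of 7 measured genes of sterol export and the liver X receptors, 3 rose and 3 fell. SMPDL3A, a target of these receptors, and the exporter ABCG1 were detected on every L-INV array but on none from H-INV cells. Both passed the detection filter only through the group where they are high, so that their falls add little to the count. A further 2 genes of this list did not pass the filter. By the same kind of bound as for STARD4, SMPDL3A was at least 2.15-fold lower there and ABCG1 at least 2.05-fold. These bounds leave out the spread between arrays, and their dependence on background correction was not tested. The esterase NCEH1 fell by 0.90 and LPCAT3, an enzyme of phospholipid remodelling, rose by 0.81. ABCA1 and MYLIP of the same list, named after their values were seen, rose by 0.70 and 0.66.

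Of 11 measured genes of the elongation cycle and its supply, 4 rose and 3 fell, led by the elongase ELOVL4 of very long chains, which fell by 1.54, and by PGD of the NADPH-producing pentose phosphate pathway, which rose by 0.82. FABP5, a fatty acid-binding protein, rose by 0.37 and HSD17B12, of the elongation cycle, fell by 0.34. Of 14 genes of glycerolipid synthesis, 3 rose, 2 fell and 9 did not pass. GPAT3, an acyltransferase of the first step, fell by 1.56, CHKA, choline kinase, rose by 0.60, PCYT2, of phosphatidylethanolamine synthesis, fell by 0.52 and AGPAT2, of phosphatidic acid synthesis, rose by 0.32. Of 21 genes of fatty acid oxidation, 10 rose, 3 fell and 8 did not pass, with a median log2 fold change of 0.20. CPT1A, the carnitine transferase that malonyl-CoA inhibits, rose by 1.20 (SE 0.10, adjusted p = 1.59e-05). It stood close to background in L-INV cells, at 5.99, 5.76 and 5.95, and the dependence of this size on background correction was not tested. SLC25A20, the carnitine carrier, rose by 0.86, ETFB, part of an electron carrier of this pathway, by 0.52, and ACAD9 by 0.39. The 3 that fell, named after their values were seen, were ACADS (-0.38), ETFA (-0.34) and ACADVL (-0.21).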

How the data were processed

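Total RNA of H460 L-INV and H-INV cells (3 arrays each) was labelled and hybridized to Illumina Human HT-12 v4 BeadChips. The authors deposited a table of linear intensity per probe as scanned, exported with GenomeStudio without background correction or normalization, with a detection p-value that sets every probe against negative control beads. A second deposited table holds the intensity after the authors' background correction and quantile normalization, and served as an alternative after a shift of 40.0 and log2. The submitters' processing notes name GenomeStudio and Partek.

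The scanner intensities were corrected by normexp (limma 3.58.1, R 4.3.3) with an offset of 16, the control level being derived from detection p-values, then quantile-normalized and log2-transformed. Of 47322 probes, 16941 had a detection p under 0.01 on at least 3 arrays and were kept. Of all probes, 30111 had 1 symbol in the platform annotation, 8 had several and 17203 had none there. Through the GRCh38.p14 gene table, 30072 Entrez IDs were found and 0 symbols changed. The brightest kept probe stood for each gene, which gave 10279 genes, fitted with lmFit and eBayes (two-sided, Benjamini-Hochberg adjustment over all of them). The other probes were tested in a fit over all kept probes. Of the 12 other kept probes of the 38 genes, 6 gave the same call, 6 another call and 0 the opposite one. Over all genes tested the standard error of the change had a median of 0.0824 on the log2 scale, and precision is limited by the few arrays. The fit was also run on simulated data with independent noise and few changed genes, whereas 58.0% of genes were called here. That run therefore says nothing about whether the calls in these data hold.

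The genes and lists were chosen with earlier results of these data known. Named are all 38 genes, with every array given for the 12 largest changes past the test, for INSIG1, SREBF1, SREBF2, HMGCS1, FASN and SCD, and for genes above background in 1 group only, and up to 4 called genes of each further list with the largest change. MBTPS1, PDSS1, ABCA1, MYLIP, ACADS, ETFA and ACADVL were named beyond that rule, with their values known. Not every enzyme of either branch is analysed here. The alternatives were the authors' table, no background correction, an offset of 50, 75th percentile or median scaling, a detection filter that was absent or asked for all 6 arrays, averaging over probes, one-way ANOVA as in the methods, a robust trended prior, blocking on replicate number, omission of single arrays, and stricter thresholds.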

Additional observations from a re-analysis of the deposited data

How the results depend on the processing

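Of the 20 called genes, 15 kept their call and direction under every alternative in which they were tested at an adjusted p of 0.05. TM7SF2 and STARD4, among the 15, were not tested under the filter that asked for all 6 arrays. The others (PMVK, ACLY, ACACA, FASN and ELOVL5) lost their call under at least 1. A stricter threshold lost more, NSDHL among them at 0.01. Calls were also gained: of 592 values of the measured genes under alternatives at 0.05, 33 gained a call and 20 lost one. Without background correction MVK, IDI1, SQLE and EBP were among the genes that gained a call (adjusted p = 0.0286, 0.00629, 0.0215 and 0.0160). The counts of called genes stayed within 1.5 times of 5958 in all, 10 sterol and 9 fatty acid genes, except for stricter thresholds and 1 omitted array. With a fold change above 2 they were 1053, 2 and 3, and at an adjusted p under 0.01 the fatty acid count was 5 and the sterol count 8. Leaving out single arrays gave 5327 to 5726 genes in all, 10 to 13 sterol genes and 5 to 10 fatty acid genes. The sterol median of -0.20 was -0.17 without background correction, -0.27 with the mean of a gene's probes and -0.26 to -0.18 with single arrays left out. The fatty acid median of 0.23 was 0.17 to 0.28 with single arrays left out. Signs turned for genes near 0 only: MVD ran from -0.074 to 0.17 and ACSL1 from -0.056 to 0.19 with single arrays left out. No scaling moved the median of all genes by over 0.1 on the log2 scale.

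Replicate numbers gave no pairing: deviations of same-numbered arrays from their group means correlated at -0.07, -0.02 and -0.09, and no H-INV array correlated best with the L-INV array of its number. With the replicate number as a block, 5647 genes were called, 11 of the sterol and 8 of the fatty acid branch, with MVK gained (adjusted p = 0.0297) and ACLY lost (adjusted p = 0.0565). For probes near background (TM7SF2, STARD4, ACACB) the size of a change depended on background correction.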
